A study of Rattus norvegicus with 8 samples.

Results

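The beta-4 galactosyltransferase and beta-4 GalNAc transferase genes of the rat small intestine were compared between animals with cystic fibrosis (CF) and wild-type (WT) animals. The family was taken as 10 symbols, B4galt1 to B4galt6 and B4galnt1 to B4galnt4, matched exactly to the gene names of the deposited table. Of these, 9 were found among 52753 loci, and B4galnt2 was not found under that symbol and was not analysed here. All 9 found members passed the filter on low counts.

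The libraries came from the whole length of the small intestine of Sprague Dawley rats at postnatal day 21, flushed with saline and 10 mM dithiothreitol and sequenced as stranded mRNA. There were 4 libraries labelled CF, a disease in which the anion channel CFTR is lost, and 4 labelled WT, numbered 0 to 3 in each group only as names. The labels give no CF allele, sex or litter and do not say whether each library is a separate animal, so the p-values measure the spread between these libraries, which may be technical. Depth was between 15.3 and 20.9 M assigned fragments per library. Of 20 enterocyte markers 19 were found and tested, and their summed level was between 13954 and 37539 CPM (fragment counts scaled to library size by TMM factors), lowest in CF library 0.

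These enzymes sit in the Golgi and use UDP-galactose or UDP-GalNAc as donor. B4galt1 to B4galt4 join galactose to N-acetylglucosamine and so make lactosamine, the unit that carries sialic acid, fucose and further sugar repeats on glycoproteins and mucins. B4galt5 and B4galt6 join galactose to glucosylceramide and make lactosylceramide, the root of most gangliosides and of other complex glycolipids. B4galnt1 adds GalNAc to gangliosides, while B4galnt3 and B4galnt4 add it to N-acetylglucosamine and make the LacdiNAc unit in place of lactosamine.

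RefSeq promoter windows on build GRCr8 (250 bases before to 50 after the start) were at hand for 7 of the 10 listed genes. Those of B4galt1 and B4galt4, which were highest on CPM in the same 2 CF libraries, and of B4galnt3, which had the smallest p-value of the family, are shown. Capitals mark matches on either strand to the GC box GGGCGG, the AP-1 site TGANTCA, the STAT site TTCNNNGAA, the NF-kB-type site (GGGA and CC with any 4 bases between them) or the TATA box TATAAA.
B4galt1 promoter, chr5:60778396-60778695, minus strand: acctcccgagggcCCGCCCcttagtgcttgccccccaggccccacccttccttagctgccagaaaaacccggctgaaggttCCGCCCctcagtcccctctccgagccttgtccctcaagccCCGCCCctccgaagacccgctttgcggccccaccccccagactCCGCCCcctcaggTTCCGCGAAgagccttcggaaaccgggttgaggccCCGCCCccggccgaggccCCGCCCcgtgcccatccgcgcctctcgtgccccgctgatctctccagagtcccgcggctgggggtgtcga
B4galt4 promoter, chr11:75527128-75527427, minus strand: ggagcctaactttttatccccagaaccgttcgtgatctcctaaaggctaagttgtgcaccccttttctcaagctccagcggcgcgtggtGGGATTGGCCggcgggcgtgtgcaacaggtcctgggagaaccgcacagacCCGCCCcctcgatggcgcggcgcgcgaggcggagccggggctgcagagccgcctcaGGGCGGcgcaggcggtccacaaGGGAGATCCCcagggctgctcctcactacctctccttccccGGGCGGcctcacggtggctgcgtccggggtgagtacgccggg
B4galnt3 promoter, chr4:155181195-155181494, minus strand: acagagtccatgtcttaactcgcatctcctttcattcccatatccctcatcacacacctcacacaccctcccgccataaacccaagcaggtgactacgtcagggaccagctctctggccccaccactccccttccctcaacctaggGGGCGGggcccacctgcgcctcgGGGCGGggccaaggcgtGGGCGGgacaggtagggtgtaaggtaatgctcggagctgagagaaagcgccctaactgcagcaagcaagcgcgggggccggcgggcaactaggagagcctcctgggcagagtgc
The B4galt1 window held 6 GC boxes and 1 STAT site, and its GC content was 71.7%. The B4galt4 window held 3 GC boxes and 2 NF-kB-type sites, and the B4galnt3 window held 3 GC boxes and no match to the other 4 motifs. Of all 33469 windows of 300 bases, 33.1% held a GC box, 8.87% a STAT site, 19.3% an NF-kB-type site, 7.33% an AP-1 site and 14.2% a TATA box. Among the other 4 members with a window, the same search found 3 GC boxes for B4galnt4, 1 GC box and 1 NF-kB-type site for B4galt3, 1 TATA box for B4galt2 and none of the 5 motifs for B4galt5. None of the 7 windows held the AP-1 site. The motifs were chosen after values had been seen. These matches describe letters in a window and show no binding. The windows follow annotated starts, and whether the genes start there in the intestine was not tested. The lack of motifs in the B4galt5 window, with a GC content of 49.0%, is thus no statement on the promoter used in this tissue.

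Levels between genes were compared on the FPKM scale, which takes transcript length into account. B4galt5 was the highest member over the 8 libraries (mean 30.6 FPKM), followed by B4galt3 (25.9 FPKM) and B4galt6 (20.8 FPKM). B4galt1 (10.6 FPKM) and B4galnt4 (10.4 FPKM) came next, then B4galt4 (4.50 FPKM), B4galnt1 (4.23 FPKM) and B4galt2 (2.92 FPKM). B4galnt3 was the lowest at 0.479 FPKM. B4galt5 was above B4galt3 in all 8 libraries, B4galt3 above B4galt6 in 7, and B4galt6 above B4galt1 in 7. The order of B4galt1 and B4galnt4 was not settled, since B4galt1 was the higher in only 2 of 8 libraries, nor was that of B4galt4 and B4galnt1, with 4 of 8. B4galnt1 was above B4galt2 in 7 libraries, and B4galnt4 above B4galt4 and B4galt2 above B4galnt3 in all 8. By this pooled mean B4galt5, which makes lactosylceramide, and B4galt3, which makes lactosamine, came first. In CF library 0, however, B4galt1 (33.8 FPKM) was above B4galt3 (25.5 FPKM), and in CF library 1 B4galt6 (32.2 FPKM) was above B4galt3 (28.5 FPKM). The GalNAc transferases together made up 9.64% to 18.7% of the family's summed FPKM.

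**Figure D1:**
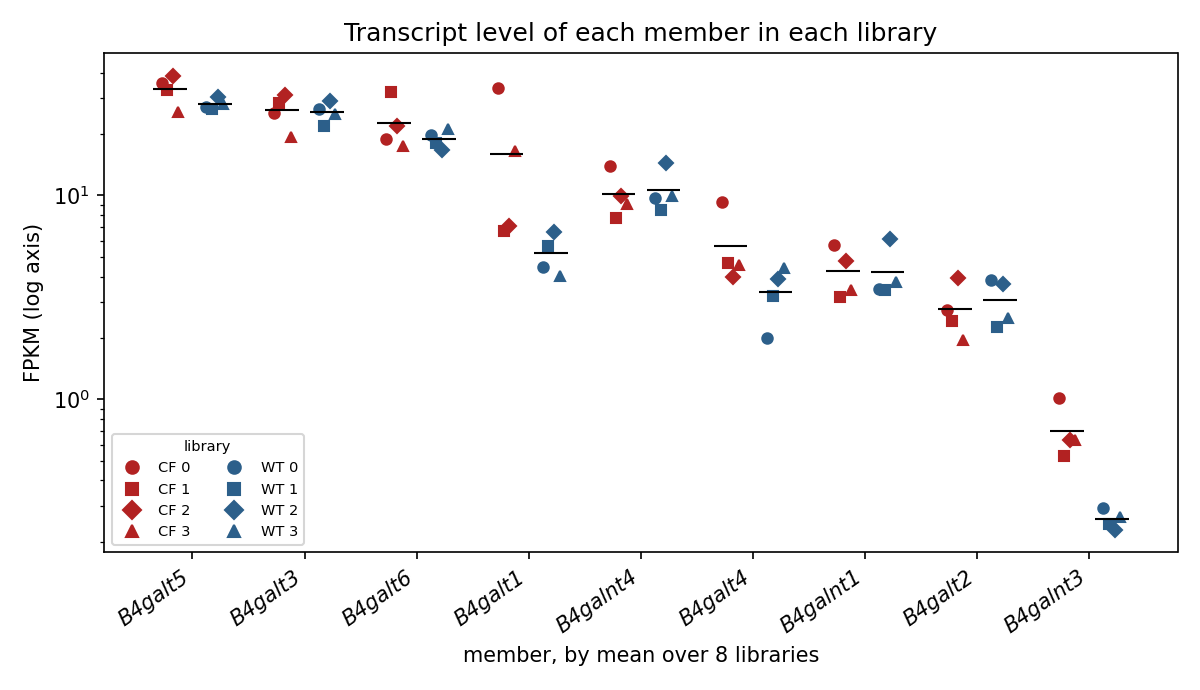
FPKM on a log axis for each of the 9 members, ordered by their mean over the 8 libraries, with CF libraries in red, WT libraries in blue, marker shapes for the library numbers and black lines for group means. B4galt1 spans 6.73 to 33.8 FPKM in CF and 4.01 to 6.62 FPKM in WT, and B4galnt3 lies between 0.525 and 1.01 FPKM in CF and between 0.229 and 0.294 FPKM in WT.

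The comparison of CF with WT asks whether transcripts of this family differ in the CF intestine. None of the 9 members passed edgeR's quasi-likelihood test at an adjusted p of 0.05, a threshold that 0.165% of the 16941 tested loci passed (0.136% higher and 0.0295% lower in CF). At an unadjusted p of 0.05, 4 members passed, all with higher means in CF (B4galnt3, B4galt1, B4galt5 and B4galt4), where 15.1% of all tested loci did so in either direction and 7.94% with higher values in CF. Of the 9 fold changes 8 were above 0, against 49.2% of all loci, though that of B4galnt4 was 0.00 (SE 0.15) and changed sign in 10 of 18 alternatives. The family had a median of 0.24 on the log2 scale, against −0.01 over all loci. On CPM, 3 members (B4galnt3, B4galt1 and B4galt5) had groups that did not overlap, as did 4.86% of loci in the same direction and 8.78% in either. On FPKM these were 2 members, B4galnt3 and B4galt1, against 2.24% of loci. In whole tissue, a different number of cells of a type and a different amount of RNA per cell cannot be told apart.

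**Figure D2:**
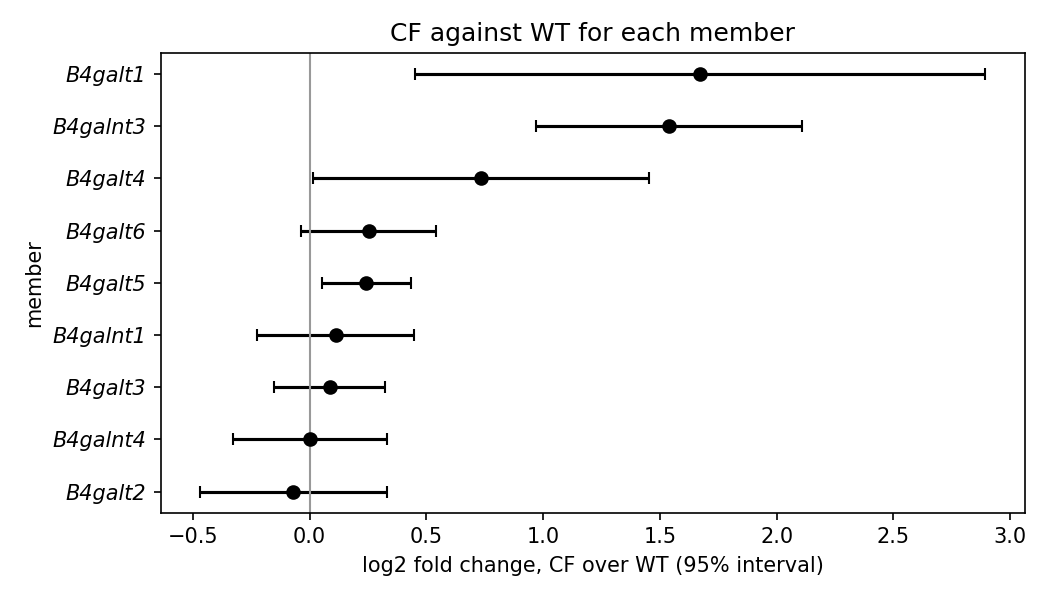
Log2 fold change of CF over WT for the 9 members from edgeR's quasi-likelihood fit, with points for the estimates and bars for 95% intervals. The intervals of B4galt1, B4galnt3, B4galt4 and B4galt5 lie above 0, and those of the other 5 members include it.

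B4galnt3 (chromosome 4, 152736100 to 152835182, Rnor_6.0), 1 of the 2 LacdiNAc synthase genes, was higher in every CF library than in any WT library. It was at 4.34, 2.99, 2.77 and 4.34 CPM in CF libraries 0, 1, 2 and 3. In WT libraries 0, 1, 2 and 3 it was at 1.40, 1.46, 0.885 and 1.23 CPM. The lowest CF library thus lay well above the highest WT library, and the spread within each group was smaller than the gap between their means (3.61 ± 0.848 and 1.24 ± 0.257 CPM, mean ± SD, n = 4 each). This is a 2.91-fold difference (log2 fold change 1.54, SE 0.26, 95% interval 0.97 to 2.11), and edgeR's quasi-likelihood test gave an adjusted p of 0.0544. It ranked 34 among all 16941 loci by p-value. Permuting the group labels exactly (two-sided, log2 CPM) returned p = 0.0286, the smallest that 4 against 4 libraries allow. The level rested on 18 to 29 fragments per WT library and 52 to 90 per CF library. The adjusted p was 0.0484 without CF library 0 and 0.0426 without CF library 2, while it was between 0.0681 and 0.187 without any one of the other 6 libraries. With DESeq2 it was 0.000167 and with no filter on low counts 0.000282, within a range of up to 0.792 over all 18 alternatives. The log2 difference was 1.12 on log2(FPKM + 0.1) and 0.42 on log2(FPKM + 1), scales that understate the change of a gene this low.

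B4galnt4 (chromosome 1, 213870501 to 213881917), the other LacdiNAc synthase gene, was the more abundant of the pair and had nearly the same mean in both groups. It was at 54.5, 40.8, 41.4 and 59.5 CPM in CF libraries 0 to 3 and at 43.1, 45.2, 58.2 and 49.9 CPM in WT libraries 0 to 3. Its log2 fold change was 0.00 (SE 0.15, 95% interval −0.33 to 0.33). B4galnt3 as a percentage of the FPKM sum of both genes was 6.75, 6.33, 5.98 and 6.48 in CF libraries 0 to 3. In WT libraries 0 to 3 it was 2.95, 2.79, 1.57 and 2.60. The 2 groups of shares did not overlap, and B4galnt4 remained the main contributor in every library.

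B4galt1 (chromosome 5, 57121768 to 57168610), which makes lactosamine and, together with alpha-lactalbumin, the lactose of milk, was high in 2 of the 4 CF libraries. It was at 61.2 CPM in CF library 0 and 43.5 CPM in CF library 3, but at 13.3 and 13.8 CPM in CF libraries 1 and 2. WT libraries 0, 1, 2 and 3 were at 8.03, 11.5, 13.2 and 8.46 CPM. CF libraries 1 and 2 thus lay just above the highest WT library, and on CPM by library totals alone, without TMM scaling, the groups overlapped. The means were 33.0 ± 23.6 CPM in CF and 10.3 ± 2.47 CPM in WT (SD, n = 4 each). CF exceeded WT by 1.67 on the log2 scale (SE 0.53, 95% interval 0.45 to 2.89, edgeR adjusted p = 0.221). This estimate was 1.19 without CF library 0 and 1.51 without CF library 3.

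B4galt4 (chromosome 11, 64557621 to 64584028), which acts on sulfated N-acetylglucosamine, was on CPM also highest in CF libraries 0 and 3, to a lesser degree. Its CPM values were 23.3, 11.8, 10.4 and 15.7 in CF libraries 0, 1, 2 and 3. They were 4.99, 8.38, 10.6 and 12.9 in WT libraries 0, 1, 2 and 3. WT library 0 was the lowest of all 8, and CF libraries 1 and 2 lay inside the WT range. The log2 fold change of 0.73 (SE 0.32, 95% interval 0.02 to 1.45, edgeR adjusted p = 0.322) was 0.46 without CF library 0 and 0.93 without WT library 3.

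**Figure D3:**
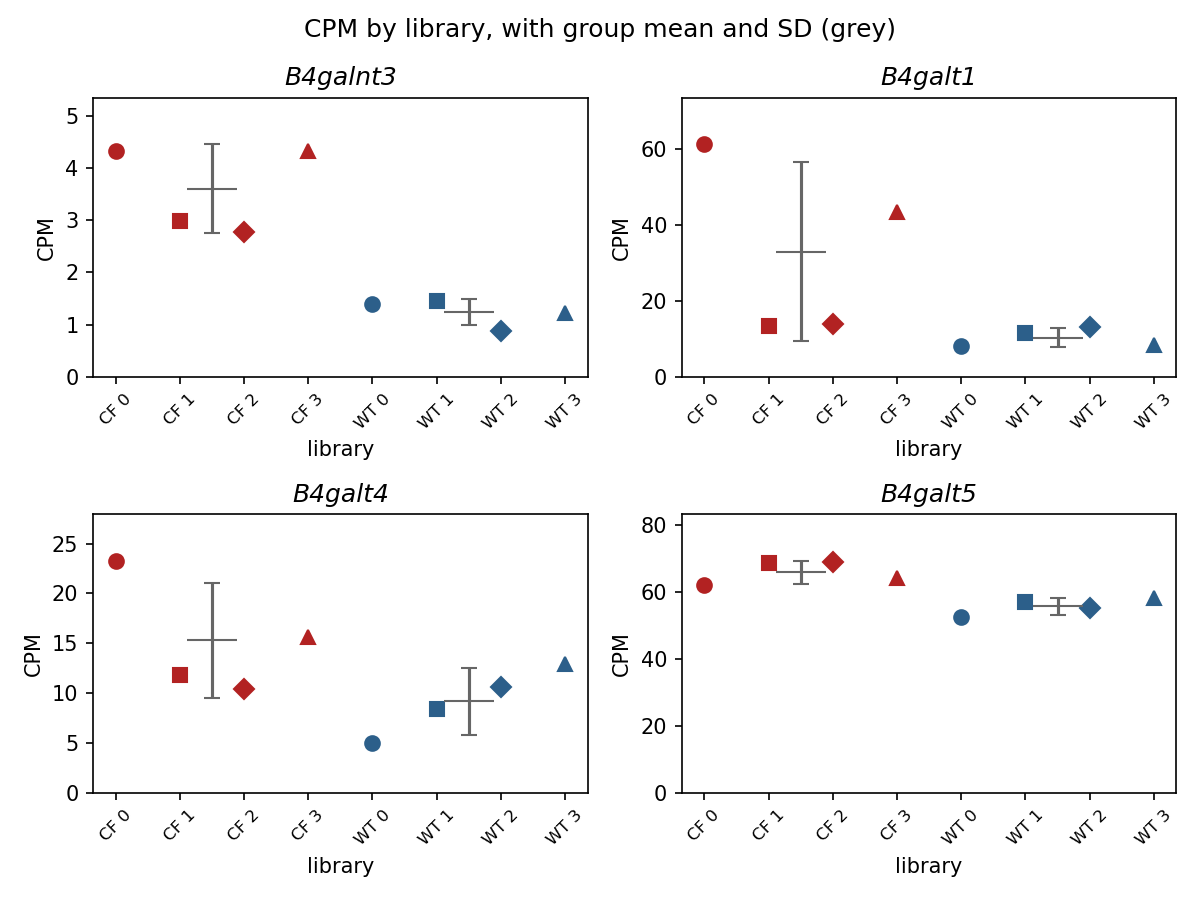
CPM of B4galnt3, B4galt1, B4galt4 and B4galt5 in each library, with CF in red, WT in blue and the group mean ± SD in grey, each panel starting at 0. All 4 CF values of B4galnt3 and of B4galt5 lie above the WT values, while B4galt1 is at 61.2 and 43.5 CPM in CF libraries 0 and 3 and between 8.03 and 13.8 CPM in the other 6.

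The other 2 lactosamine-type genes did not share this pattern. B4galt3 (chromosome 13, 89643873 to 89649906), which extends N-glycans, was at 57.9, 76.9, 72.8 and 64.5 CPM in CF libraries 0 to 3, lowest in the library where B4galt1 was highest. It was at 62.7, 60.6, 68.0 and 65.0 CPM in WT libraries 0 to 3, so the groups overlapped (log2 fold change 0.09, SE 0.11, 95% interval −0.15 to 0.32). B4galt2 (chromosome 5, 136707434 to 136717504) was at 5.59 to 8.73 CPM in CF and 6.32 to 8.64 CPM in WT, with a log2 fold change of −0.07 (SE 0.18, 95% interval −0.47 to 0.33).

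The make-up of the lactosamine-type transcripts therefore differed between libraries of the CF group. B4galt1 made up 47.4% of the summed FPKM of B4galt1 to B4galt4 in CF library 0 and 38.9% in CF library 3. In CF libraries 1 and 2 it made up 15.9% and 15.4%, inside the WT range of 11.1% to 17.2%. B4galt3 went the other way, with 35.7% and 45.8% in CF libraries 0 and 3, against 67.3% and 67.5% in CF libraries 1 and 2 and 66.3% to 71.9% in WT. Since shares sum to a fixed total, the lower share of B4galt3 is not a separate measurement.

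**Figure D4:**
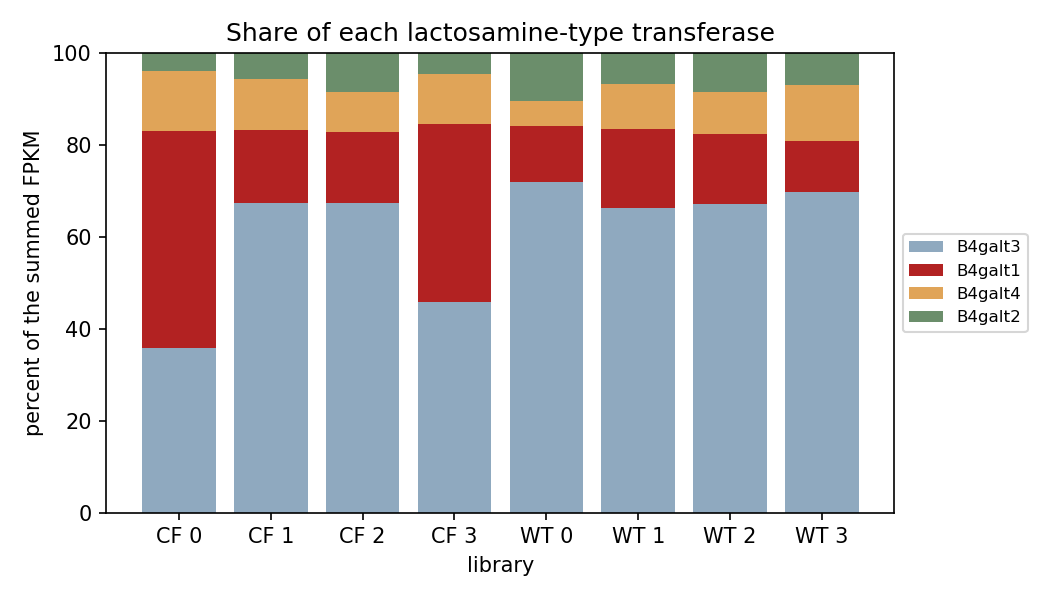
Percent of the summed FPKM of the 4 lactosamine-type genes in each library, stacked from B4galt3 at the bottom. B4galt1 takes 47.4% and 38.9% in CF libraries 0 and 3 and 11.1% to 17.2% in the 6 other libraries.

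The lactosylceramide synthase genes had somewhat higher means in CF, and neither passed the test. B4galt5 (chromosome 3, 164039730 to 164095878) was at 62.2, 68.9, 69.0 and 64.2 CPM in CF libraries 0 to 3. It was at 52.6, 57.1, 55.2 and 58.3 CPM in WT libraries 0 to 3. All 4 CF values were above all WT values, and the spread was small in both groups (66.0 ± 3.42 and 55.8 ± 2.46 CPM, SD, n = 4 each), but the difference was 1.18-fold (log2 fold change 0.24, SE 0.09, 95% interval 0.05 to 0.43, edgeR adjusted p = 0.234). The exact permutation p was 0.0286 for B4galt5 and for B4galt1, and between 0.143 and 0.971 for the other 6 members apart from B4galnt3. On FPKM the groups of B4galt5 overlapped, with CF library 3 at 25.6 FPKM below all WT libraries (26.4 to 30.4 FPKM).

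B4galt6 (chromosome 18, 15438763 to 15525587) was at 98.3, 139, 117 and 98.5 CPM in CF libraries 0 to 3 and at 92.1, 85.1, 97.2 and 106 CPM in WT libraries 0 to 3. CF libraries 1 and 2 were above the WT range and the other 2 inside it (log2 fold change 0.25, SE 0.13, 95% interval −0.04 to 0.54, edgeR adjusted p = 0.393). A second locus with the same name and span held 483 fragments over all libraries against 15515 for the one used. Its log2 fold change was 0.47 (SE 0.20), and the fractional counts of B4galt6 in all 8 libraries show that fragments were divided between loci there. B4galt6 made up 34.7% to 49.5% of the FPKM sum of B4galt5 and B4galt6 in CF and 35.5% to 43.0% in WT.

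B4galnt1 (chromosome 7, 70451891 to 70467915), the GM2 and GD2 ganglioside synthase gene, differed little. It was at 16.5, 12.9, 13.9 and 16.6 CPM in CF libraries 0 to 3 and at 11.4, 12.8, 17.1 and 14.1 CPM in WT libraries 0 to 3. The groups overlapped, with a log2 fold change of 0.11 (SE 0.15, 95% interval −0.23 to 0.45). Its span also holds Slc26a10, with 455 fragments over the 8 libraries, and its counts were fractional in all 8.

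Genes of the same pathways were read from 10 lists with 121 entries, of which 106 genes were tested. In these lists 1 gene rose, 0.943% of those tested against 0.165% of all loci, and none fell. At an unadjusted p of 0.05, 20.8% passed against 15.1% of all loci, and the median over the lists was 0.04 on the log2 scale. The gene that rose was B3gnt3, a GlcNAc transferase that extends O-linked chains on galactose.

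None of the 14 tested genes that supply UDP-galactose and UDP-GalNAc passed the test, and their median was 0.16 on the log2 scale. Gfpt1, the entry enzyme of hexosamine synthesis and the most abundant of them, was at 90.5 ± 12.8 FPKM in CF and 64.2 ± 8.08 FPKM in WT (log2 fold change 0.53, SE 0.13, adjusted p = 0.133 by edgeR). Pgm2, a phosphoglucomutase gene, was at 67.4 ± 15.2 and 53.5 ± 5.44 FPKM (SD, n = 4 each). Slc35a2, the Golgi carrier of UDP-galactose, differed by 0.67 on the log2 scale (SE 0.11, edgeR adjusted p = 0.0522), with 65.2 to 80.5 CPM in CF and 38.6 to 49.5 CPM in WT. Its adjusted p was between 5.23e-05 and 0.792 over the alternatives. Slc35d1, a carrier of UDP-GalNAc and UDP-glucuronic acid, differed by 0.72 (SE 0.18, adjusted p = 0.125 by edgeR). The CPM groups of Gfpt1, Slc35a2 and Slc35d1 did not overlap, and the latter pair was picked with values in view. Of all 14 genes, 9 had log2 fold changes above 0, and 4 had groups without overlap, against 8.78% of all loci. At an unadjusted p of 0.05, 4 were higher and 1 was lower in CF, where 15.1% of all loci passed in either direction.

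Of the 7 tested beta-3 GlcNAc transferases, which alternate with the beta-4 galactosyltransferases in building repeats, B3gnt3 rose. It was at 12.2, 5.70, 5.11 and 10.9 CPM in CF libraries 0 to 3 and at 1.56 to 2.0 CPM in WT (log2 fold change 2.32, SE 0.31, edgeR adjusted p = 0.0159). Its call was lost without WT library 0 (0.0568), 1 (0.119), 2 (0.0752) or 3 (0.0940), with limma-voom (0.0665), on log2(FPKM + 1) (0.130 with the filter and 0.792 without) and with the replicate block (0.0514). These were 8 of 18 alternatives, within a range of adjusted p from 3.36e-11 to 0.792. Like B4galt1 it was highest in CF libraries 0 and 3. B3gnt7, named after its values were seen, was at 98.7, 35.9, 38.4 and 66.8 CPM in CF libraries 0 to 3 and at 19.7 to 42.1 CPM in WT (log2 fold change 0.86, SE 0.36, adjusted p = 0.310 by edgeR).

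None of the 9 tested beta-3 galactosyl and GalNAc transferases passed the test. C1galt1, the core O-glycan galactosyltransferase, had the same library pattern as B4galt1, with 372, 109, 114 and 280 CPM in CF libraries 0 to 3 and 57.6 to 135 CPM in WT (log2 fold change 1.15, SE 0.45, adjusted p = 0.288 by edgeR). Its FPKM was 46.7 ± 21.2 in CF and 22.2 ± 6.24 in WT (SD, n = 4 each), while B3galt5, the other most abundant gene of that list, was at 41.3 ± 2.57 and 36.4 ± 9.39 FPKM.

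Of 12 tested genes that cap or branch lactosamine none passed over all loci, and the list's median was 0.47 on the log2 scale. The sialyltransferase gene St3gal4 was at 171, 112, 83.7 and 167 CPM in CF libraries 0 to 3 and at 29.0 to 85.7 CPM in WT (log2 fold change 1.23, SE 0.34, adjusted p = 0.168 by edgeR). Fut2, which makes the H antigen, was at 96.5 to 236 CPM in CF and 10.1 to 60.0 CPM in WT (log2 fold change 1.73, SE 0.54, adjusted p = 0.222 by edgeR). WT library 0 was far below the other WT libraries for Fut2, and without it the log2 fold change was 1.40. Gcnt2, the branching enzyme of the I antigen, differed by 0.60 on the log2 scale (SE 0.14, adjusted p = 0.107 by edgeR). Both Fut2 and Gcnt2 were picked with their values in view. Gcnt3, a mucin branching enzyme, was at 133 ± 14.0 FPKM in CF and 99.7 ± 25.0 FPKM in WT.

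No member of the remaining lists passed. In glycolipid synthesis, where B4galt5 and B4galt6 act, 14 genes were tested and the median log2 fold change was 0.04. Ugcg, which makes the glucosylceramide that both enzymes use and was named after its values were seen, differed by 0.43 on the log2 scale (SE 0.13, adjusted p = 0.179 by edgeR), and Cers2, a ceramide synthase gene, by 0.29 (SE 0.12). Degs2, the most abundant gene of that list, was at 175 ± 39.0 FPKM in CF and 149 ± 22.5 FPKM in WT. Of the 14 tested genes for lysosomal removal of these sugars 13 had log2 fold changes below 0 and 1 above it, where 49.2% of all loci were above 0. At an unadjusted p of 0.05, 1 of the 14 passed, against 15.1% of all loci, and the CPM groups overlapped for every gene. The median was −0.16, and the log2 fold change was −0.09 (SE 0.11) for the saposin gene Psap. For the protective protein gene Ctsa it was −0.43 (SE 0.18, adjusted p = 0.292 by edgeR). B4galt7, the family member that builds the proteoglycan linker and is not among the 10 symbols, was at 7.65 ± 1.63 FPKM in CF and 6.80 ± 1.04 FPKM in WT.

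The N-glycan branching list (13 tested, median log2 fold change −0.01) and the Golgi pH, manganese and trafficking list (15 tested, median 0.03) lay near the median of all loci. Their most abundant genes were Mgat4a (31.4 FPKM over the 8 libraries) and Mgat2 (30.4 FPKM), which start N-glycan branches, and Golph3 (60.0 FPKM), which retains Golgi enzymes, and Gpr89b (43.9 FPKM), an anion channel that acidifies the Golgi. Among 7 tested galectin and lactose genes the beta-galactoside-binding galectins Lgals4 (1603 FPKM) and Lgals2 (884 FPKM) were the most abundant, and the median log2 fold change was 0.04.

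On CPM, B4galnt3, B4galt1, B4galt4, B3gnt3, B3gnt7, C1galt1, St3gal4, Fut2 and Gcnt2 were highest in CF libraries 0 and 3. On FPKM, CF library 3 was below CF library 1 for B4galt4 (4.54 and 4.67) and below CF library 2 for B4galnt3 (0.628 and 0.631). CF libraries 0 and 3 were also highest in epithelial antimicrobial and inflammatory genes, a list added after the values were seen. The summed level of its 12 found genes was 27090, 5988, 11149 and 25884 CPM in CF libraries 0 to 3 and 505 to 13426 CPM in WT, with WT library 0 lowest. Its gene Lcn2, the antimicrobial siderophore-binding lipocalin, was at 392, 31.1, 16.0 and 269 CPM in CF libraries 0 to 3 and at 9.97 to 33.9 CPM in WT. Lcn2 was picked with its values in view, and the most abundant gene of the list was Reg3g. None of this list's 11 tested genes passed the test, and their median was 1.17 on the log2 scale. Of them 10 had log2 fold changes above 0, where 49.2% of all loci did. At an unadjusted p of 0.05, 5 were higher in CF and 0 lower, where 7.94% of all loci were higher. The part of these genes in the family's values was not tested.

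Markers of other cell types were read in the same libraries. Of all tested loci 15.1% passed an unadjusted p of 0.05 in either direction, 7.94% with higher values in CF. The CPM groups did not overlap for 8.78% of all tested loci, and 0.165% passed the adjusted test. Goblet cell markers (12 tested, 1 higher by the test, 7 at an unadjusted p of 0.05, none at 0) summed to between 7787 and 11524 CPM in CF and between 4876 and 9467 CPM in WT, with WT library 0 lowest. Genes of a list named for tissue handling (13 tested, 1 higher by the test, 9 at an unadjusted p of 0.05) summed to 643 to 780 CPM in CF and 402 to 551 CPM in WT, with Hspa1a at 0 and Zfp36 the most abundant. The name is only a label, and whether handling differed between the groups was not tested. Red cell markers (4 tested, 1 lower by the test, none of the 4 with overlapping groups) summed to 90.3 to 124 CPM in CF and 151 to 351 CPM in WT.

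Of 8 tested vessel markers 5 were lower in CF at an unadjusted p of 0.05, which 15.1% of all loci passed in either direction. None of the 8 passed the adjusted test, and their median was −0.37 on the log2 scale. Of 5 tested Paneth cell markers 2 were lower at an unadjusted p of 0.05 and none by the adjusted test, with a median of −0.59 and Defa5 at 0. Their most abundant gene, the defensin gene Defa24, differed by −1.20 on the log2 scale (SE 0.25, adjusted p = 0.0825 by edgeR), and its groups did not overlap. Of 11 tested crypt and dividing cell markers none passed, 6 had log2 fold changes above 0, and the median was 0.03. At an unadjusted p of 0.05, 2 of them were higher and 1 lower in CF. The list, with Olfm4 the most abundant, summed to 1290 to 1596 CPM in CF and 1164 to 1406 CPM in WT. Unlike the list as a whole, the stem cell marker Lgr5, picked with its values in view, was lower in every CF library than in any WT library (log2 fold change −0.79, SE 0.18, adjusted p = 0.101 by edgeR). Enterocyte markers summed to 13954 CPM in CF library 0 and to 26575 to 37539 CPM in the other CF libraries, against 20844 to 36898 CPM in WT. Immune cell markers (13 tested, none by the test) followed neither the groups nor CF libraries 0 and 3, with sums of 207, 143, 200 and 143 CPM in CF libraries 0 to 3 and 133 to 206 CPM in WT. The part of these markers in the family's values was not tested.

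**Figure D5:**
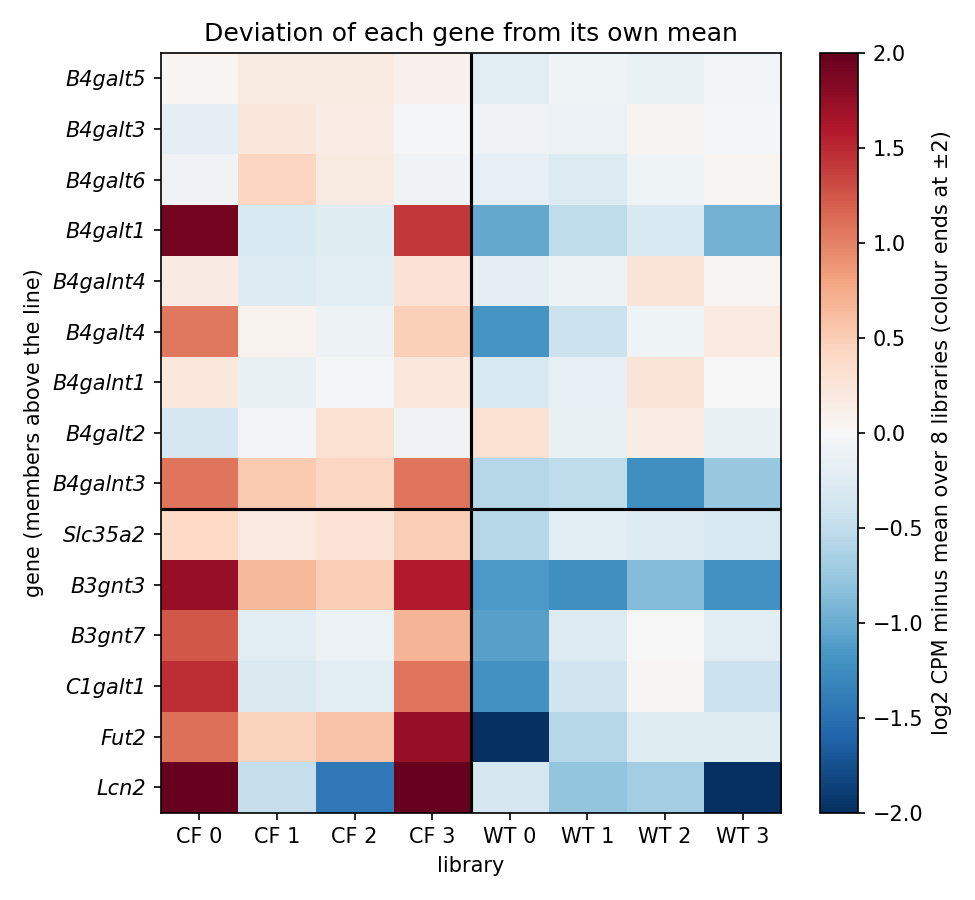
Log2 CPM of each gene minus its own mean over the 8 libraries, with the 9 members above the line and 6 other genes below it; red is higher and blue lower, and the colour scale ends at ±2. B4galt1 is 1.91 and 1.42 above its mean in CF libraries 0 and 3 and below its mean in the other 6. C1galt1 is 1.48 and 1.07 above its mean in CF libraries 0 and 3 and below it in the others, apart from WT library 2 (0.02).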

How the data were processed

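The estimated counts are raw fragments per locus and library, and the FPKM values are scaled by transcript length and between libraries, both as deposited by the authors in Cuffdiff tables, per the file headers. The submitters' processing notes name bcl2fastq, cutadapt, STAR 2.3.1z, StringTie, Cuffdiff and build Rnor_6.0, without order or settings. In the table libraries are numbered 0 to 3 and the titles run from 1 to 4, so groups are known but titles are not, and no result uses a tie between them. 2 further per-library columns were not used.

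Of the count values 5.99% were fractional, and all were rounded. Loci were kept by filterByExpr (minimum count 10, total 15; 16941 loci), scaled by TMM (as are CPM values) and tested with edgeR 4.0.16 (quasi-likelihood, robust), adjusting p-values over all loci by Benjamini-Hochberg at a threshold of 0.05. The SE divides the absolute log2 fold change by the root of F. Alternatives used limma 3.58.1 and DESeq2 1.42.0 under R 4.3.3, and summaries Python 3.11.15. The test was tried on simulated counts. Spans are as the table gives them.

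Members and lists were chosen with earlier results of these data known. From the pathway lists, 1 gene is not reported here, and list counts leave it out. Named genes were the members, called genes of the pathway lists and the 2 most abundant genes of each other pathway list; genes named outside this rule are marked in the text. Alternatives changed scaling, filter, test, unit, rounding, block and libraries.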

Additional observations from a re-analysis of the deposited data

Results flagged for a closer look

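In 36 groups of 4 values (9 members, CPM and FPKM, CF and WT), 2 had an end value whose gap to its neighbour, as a share of the group's range, was above Dixon's 95% critical value. Chance gives about 1 in 20 such groups. B4galt4 had 9.30 FPKM in CF library 0, where the next highest CF library had 4.67, a gap of 0.874 of the range. B4galnt1 had 6.11 FPKM in WT library 2, where the next highest WT library had 3.78, a gap of 0.869 of the range. On CPM neither gene had such a value.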

How the results depend on the processing

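The count of loci past the threshold was 28. It was 566 with DESeq2, 553 with no low-count filter, 17 with library totals only, 17 with limma-voom and 11 with the library number as a replicate block, and it was 0 with limma on unfiltered log2(FPKM + 1), where 1924 loci had an unadjusted p under 0.05. It was 5 to 136 with 1 library left out (136 when CF library 0 was dropped, 77 when CF library 2 was, 5 for WT library 1 or 2 and 6 for WT library 3). The cause was not tested. The count of members past the threshold, 0 at first, was 1 (B4galnt3) with DESeq2 and with no low-count filter, and 0 to 1 with 1 library left out. B4galnt3 then had a log2 fold change of 1.56 (DESeq2) and 1.58 (no filter), 1.40 to 1.65 with 1 library left out, 1.12 on log2(FPKM + 0.1) and 0.42 on log2(FPKM + 1). B4galnt4, at 0.00, was −0.074 with library totals only, −0.0097 with limma-voom, −0.070 on log2(FPKM + 0.1), −0.064 on log2(FPKM + 1) with and without the filter, −0.0097 with the replicate block, and −0.10 to 0.090 with 1 library left out. B4galt2 was −0.20 to 0.022 with 1 library left out. The other 6 members kept their sign and stayed short of the threshold in all 18 alternatives. At an unadjusted p of 0.05 the count of members, 4 in the main fit, was 1 with the replicate block. It was 2 with library totals only and on unfiltered log2(FPKM + 1). On filtered log2(FPKM + 1) and log2(FPKM + 0.1) it was 3, and with 1 library left out it was 3 to 4. Of all 16941 loci, 2566 passed that level in the main fit, 2086 with the block and 2539 with library totals only. On filtered log2(FPKM + 1) 1274 loci passed, on log2(FPKM + 0.1) 1252, and on the unfiltered scale 1924 of 40061. With 1 library left out, between 1624 of 17379 and 2847 of 17389 loci passed. The deviations of same-numbered libraries correlated at −0.11 to 0.16, and 4 of 8 libraries were closest to their own number. With so few libraries these values cannot show whether the numbers pair the samples. Under the block B3gnt3 had an adjusted p of 0.0514. Low depth limits B4galnt3 most, at 18 to 29 fragments per WT library.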
